A study of Caenorhabditis elegans with 2 samples.

Results

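The 32 nuclear genes described here encode subunits of the 26S proteasome of Caenorhabditis elegans, and they were taken from a fixed list of subunit names out of 19973 nuclear protein-coding genes in the annotation. They comprise 14 genes of the 20S core (pas-1 to pas-7 and pbs-1 to pbs-7) and 18 genes of the 19S regulatory particle (rpt-1 to rpt-6 and 12 rpn genes). Binding of EOR-1, a zinc finger transcription factor, had been mapped by chromatin immunoprecipitation and sequencing in whole L3 larvae of both sexes. All animals were of strain OP81, which carries the unc-119(ed3) mutation on chromosome III and the transgene wgIs81 with an eGFP-tagged eor-1. The study has a single group of 2 biological replicates and no other genotype, stage or treatment, so each gene was compared with the other genes of the genome and between the replicates. Whole animals were used, so a region bound in few cells and a region bound weakly in many cells cannot be told apart.

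The proteasome degrades proteins that carry ubiquitin chains. The 20S core is a stack of 2 outer rings of alpha subunits, which gate the entrance, and 2 inner rings of beta subunits, some of which hold the proteolytic sites. The 19S particle caps the core: its base holds the ATPases that unfold a substrate and the receptors that bind ubiquitin, and its lid removes the ubiquitin chain. Subunits are needed in fixed proportions, and in many animals their genes are induced together when proteasome activity falls. In C. elegans this induction is known to depend on SKN-1A, a form of the transcription factor SKN-1. No such role is assumed here for EOR-1.

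Each region in the deposited lists comes with a summit, a signal value (its scale is not given) and a q value as its −log10. The pooled list and the list of each replicate hold 30000 candidate regions each, background included. A candidate region is therefore not by itself a peak. The optimal list holds 256 nuclear peaks, with signal values of 52.7 to 384, and these were exactly the 256 nuclear regions of highest signal in the pooled list. A region was assigned to a gene when its summit lay between 1000 bp upstream and 200 bp downstream of a transcript start (Ensembl, build WBcel235, the same assembly as ce11). All ranks below are by signal among the nuclear regions of the list named. Read depth is not known, so single signal values carry no error, and the values of the replicates, each on its own scale, are the measure of spread.

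Of the 32 genes, rpn-3 alone had a peak near the top of the lists. The rpn-3 gene (WBGene00004460, chrIII:8447353-8449346, plus strand) encodes a scaffold subunit of the 19S lid. Its region had a signal of 279 in the pooled list and was the same in the optimal list, at rank 2 of the nuclear regions in both. The signal was 159 in replicate 1, at rank 2 of 29973, and 120.4 in replicate 2, at rank 6 of 29971. The −log10 q was 2.50 in the pooled list, 2.18 in replicate 1 and 2.64 in replicate 2, the highest value of each list. That value is a ceiling, shared by 131, 51 and 192 regions of these lists. By signal, this region was among the 6 strongest nuclear regions of every list.

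The region lay wholly in the 443 bp that separate rpn-3 from hsp-110, a divergent gene for a chaperone of the Hsp110 family. Its summit was 199 bp upstream of the rpn-3 start and 245 bp upstream of the hsp-110 start in the pooled list, and the same in replicate 2. In replicate 1 it was 214 bp upstream of rpn-3 and 230 bp upstream of hsp-110. The summits of the 2 replicates were thus 15 bp apart, and in all of the lists rpn-3 was the closer gene. The region was 168 bp wide in the pooled list and 122 bp in replicate 1, narrower than the common width of 296 bp and 290 bp in these lists, and 300 bp in replicate 2. An annotated non-coding RNA gene, C30C11.14, overlapped the pooled region by 16 bp.

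The sequence of this pooled region is shown because it is the strongest proteasome peak. It is followed by the 101 bases centred on the summits at pas-6, the strongest 20S region among the members outside the optimal list, and at rpn-13, a region found in replicate 2 alone. All are read 5′ to 3′ on the plus strand of build WBcel235 (RefSeq), and all lie between annotated protein-coding genes.
rpn-3 and hsp-110, chrIII:8447080-8447247: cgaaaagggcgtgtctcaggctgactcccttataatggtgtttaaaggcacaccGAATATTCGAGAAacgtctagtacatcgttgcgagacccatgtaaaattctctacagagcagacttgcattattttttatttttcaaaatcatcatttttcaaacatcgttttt
pas-6, chrV:5584530-5584630: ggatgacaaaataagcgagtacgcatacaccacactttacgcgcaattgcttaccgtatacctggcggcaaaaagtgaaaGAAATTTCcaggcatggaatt
rpn-13, chrIII:6342072-6342172: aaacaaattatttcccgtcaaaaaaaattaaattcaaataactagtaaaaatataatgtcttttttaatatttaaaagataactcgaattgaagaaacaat
Capitals at rpn-3 mark 13 bases, chrIII:8447134-8447146, that hold 3 alternating GAA and TTC units spaced by 2 bases, the form of a heat shock element. They end 8 bp from the pooled summit, and they hold the summit of replicate 1 at chrIII:8447139. Capitals at pas-6 mark a match to GAANNTTC, the core of such an element, which starts 30 bp from the summit. The rpn-13 window holds none of the words searched, and its G+C content was 17.8%, against 37.5% for the rpn-3 region and 43.6% for the pas-6 window.

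The word searched for EOR-1, taken from general knowledge of the factor, was not found at the summits of proteasome genes. GAGACGCAG or AGACGCAGA, which overlap in 8 bases, on either strand, lay within 50 bp of 0 of the 8 pooled summits of member genes, against 30 of 256 nuclear optimal summits (11.7%) and 58 of 8068 pooled candidate summits in promoter windows (0.719%). The shorter word GAGAG was likewise at 0 of 8, against 32.8% of optimal and 8.96% of candidate summits. A count of 0 of 8 allows a share of up to 37.5%, so neither word can be called rarer at these genes. GAANNTTC, which reads the same on both strands, was at 3 of the 8 summits, those of rpn-3, pas-6 and rpt-6, against 8.20% of optimal and 7.87% of candidate summits. It was also wholly within 50 bp of the summits of both replicates at rpn-3, of replicate 1 only at rpt-6, and of neither replicate at pas-6. A count of 3 of 8 is small, and no test was made. The 3-unit element, a word chosen after the rpn-3 sequence had been read, was within 50 bp of 1 of the 8, that of rpn-3. In the genome as a whole it was within 50 bp of 9 of 256 optimal summits (3.52%), 0.892% of candidate summits in promoters and 0.781% of windows 500 bp beside the optimal summits. Among those 9, other promoter peaks were at hsp-16.2 and hsp-16.41, small heat shock protein genes (signal 103), and at mbf-1 and nse-4 (80.6). The remaining promoter peaks were at ahsa-1, which encodes an Hsp90 co-chaperone, and C01G10.7 (66.9), and at F44E5.4 and F44E5.5, Hsp70 family genes (65.6). The rest of the 9 were in no promoter window (signals of 71.9, 59.2, 56.4 and 56.3). A match is a description of the letters in a window and does not show what bound there.

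**Figure D1:**
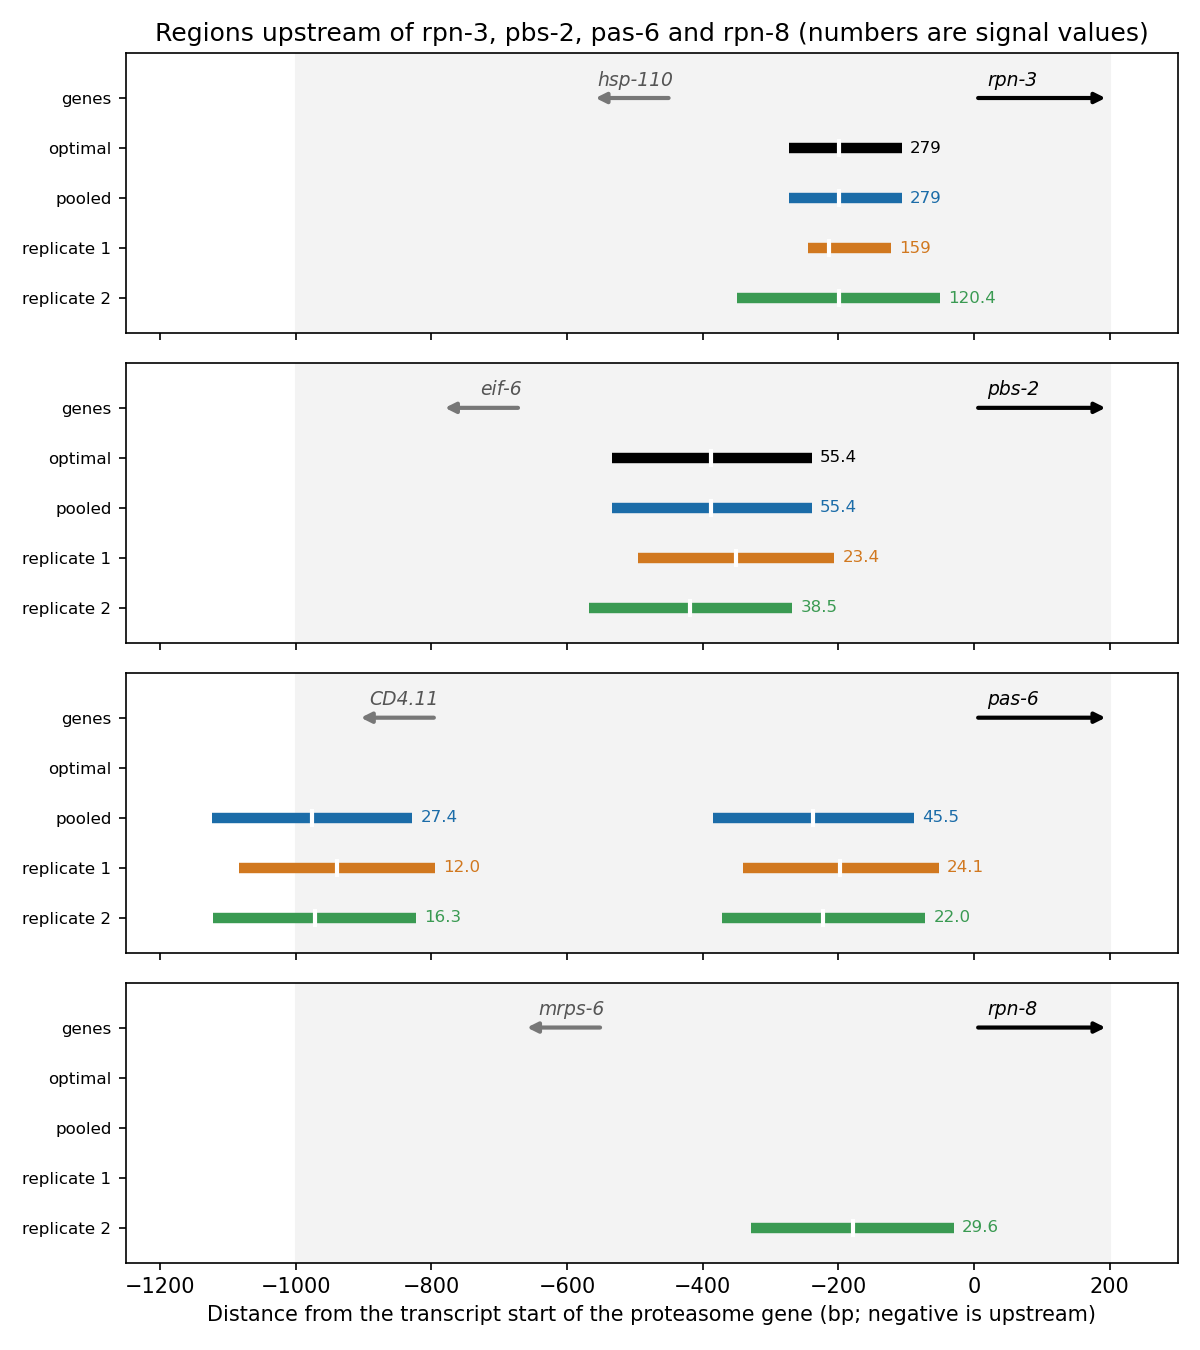
Regions of the 4 lists upstream of rpn-3, pbs-2, pas-6 and rpn-8, drawn by distance in bp from the transcript start of the proteasome gene (horizontal axis), with 1 row for the genes and 1 for each list. Bars are regions, white ticks are summits, and numbers are signal values on the scale of each list. Arrows show the starts and directions of the genes, and the grey band is the promoter window. Only regions with a summit in the window are drawn. There rpn-3 has a region of 120.4 or more in every list, and rpn-8 has a region in replicate 2 alone. A replicate 1 region with its summit 1047 bp upstream of rpn-8 is not drawn.

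The other proteasome gene with an optimal peak was pbs-2 (WBGene00003948, chrI:12967216-12968280, minus strand), which encodes a beta subunit of the 20S core. Its region, chrI:12968519-12968814, had a pooled signal of 55.4 at rank 219, close to the lowest optimal value of 52.7. The signal was 23.4 in replicate 1, at rank 1008, and 38.5 in replicate 2, at rank 110. The −log10 q was 1.46 in the pooled list, 0.64 in replicate 1 and 2.64, the ceiling, in replicate 2. The region was thus present in both replicates but was far from the top in replicate 1. The summit lay 387 bp upstream of pbs-2 and 279 bp upstream of the divergent gene eif-6, which encodes a ribosome assembly factor, so eif-6 had the closer start. In both replicates eif-6 was also the closer gene, with summits 315 bp upstream of it in replicate 1 and 248 bp in replicate 2.

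The 2 genes with an optimal peak make up 6.25% of the 32 (exact Clopper-Pearson 95% interval 0.766–20.8), and over all genes the share was 0.981%, which lies inside that interval. When each summit counted only for the closest gene, rpn-3 alone was left, 1 of 32 (3.12%), against 0.696% of all genes. Intervals here cover counting error only, and genes that share a summit are not independent. No test was made of the list, since its members were chosen with results of these data known.

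The next strongest region was at pas-6 (WBGene00003927, chrV:5583161-5584343, minus strand), which encodes an alpha subunit. Its pooled signal was 45.5, at rank 460, below the end of the optimal list. The signal was 24.1 in replicate 1, at rank 850, and 22.0 in replicate 2, at rank 987. These were the most even ranks of the members outside the optimal list that had a region in both replicates. The summit was 237 bp upstream of pas-6 in the pooled list, 197 bp in replicate 1 and 222 bp in replicate 2. A second region of pas-6 had signals of 27.4 in the pooled list, 12 in replicate 1 and 16.3 in replicate 2. It lay 976 bp upstream of pas-6 but 186 bp downstream of the start of its divergent neighbour CD4.11.

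Weaker pooled regions were found at pas-5, rpt-6 and rpn-10. At pas-5, another alpha subunit gene, the signal was 32.4, at rank 2364, with 16.9 in replicate 1 and 12.8 in replicate 2. Its summits lay 623 bp, 624 bp and 628 bp upstream in these 3 lists, and no other protein-coding gene had them in its window. At rpt-6, which encodes an ATPase of the base, the strongest pooled region had 23.4, at rank 9045, with its summit 442 bp upstream. Replicate 2 had 13 at 414 bp upstream, and replicate 1 had 13.1 at 579 bp. A second pooled region of 16.6, at 998 bp upstream, was matched by 15.3 at 984 bp in replicate 2 and by none in replicate 1. At rpn-10, which encodes a ubiquitin receptor, the signal was 18.9, at rank 16086, with 10.2 in replicate 2 and no region in replicate 1. A gene on the same strand, mrpl-9, ended 118 bp upstream of rpn-10. The pooled summit, 125 bp upstream, thus lay just inside mrpl-9. The rpn-10 value was below the median nuclear signal of the pooled list, 19.4, and the rpt-6 value was not far above it.

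Some regions of high rank appeared in a single replicate. The region at rpn-8 (WBGene00004464, chrI:4175319-4177271, plus strand), which encodes the partner of the deubiquitinating subunit RPN-11, had a signal of 29.6 in replicate 2. It was at rank 243 there, inside the 256 strongest, with a −log10 q of 1.89. Its summit, 179 bp upstream of rpn-8 and 366 bp upstream of the divergent gene mrps-6, was 868 bp from the nearest summit of replicate 1 and 1448 bp from the nearest pooled summit. That replicate 1 region, of signal 11.2, had its summit 1047 bp upstream of rpn-8, just outside the window, which it overlapped. Over all genes, 18 of the 185 with one of the 256 strongest regions of replicate 2 had no pooled candidate in their window (9.73%). At rpn-13, which encodes another ubiquitin receptor, replicate 2 had 22.4, at rank 911, with its nearest replicate 1 summit 2258 bp away and its nearest pooled summit 2854 bp away. What set these regions apart between the replicates was not tested.

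Lower in the lists, replicate 2 alone had regions at pbs-1 (14.2, at rank 6793), at rpn-11, the gene of the deubiquitinating enzyme of the lid (15.1, at rank 5419), and at rpt-1 (11.7, at rank 11866). Replicate 1 alone had regions at rpt-4 (9.43, at rank 23780) and pas-4 (8.17, at rank 29490), where pas-4 was near the floor of 8.06 of the list and rpt-4 was above 20.7% of it. The rpt-4 summit lay inside the annotated gene, 516 bp upstream of the more downstream of its 2 starts. It was also 72 bp downstream of the nfyc-1 start. With the most upstream start only, or a window of 500 bp upstream to 100 bp downstream, rpt-4 had no region in replicate 1. At rpt-5, an ATPase gene, both replicates had a region, 15.6 at rank 6695 and 8.06 at rank 24772, with summits 38 bp apart, but the pooled list had none within 3459 bp of the replicate 1 summit. Of the 12 members with a region in replicate 2, 6 had none in the pooled list (50%), against 25.8% of all genes with a region in replicate 2. In replicate 1 it was 3 of 8 (37.5%), against 22.5%. Counts this small allow no statement that the members differed from other genes.

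**Figure D2:**
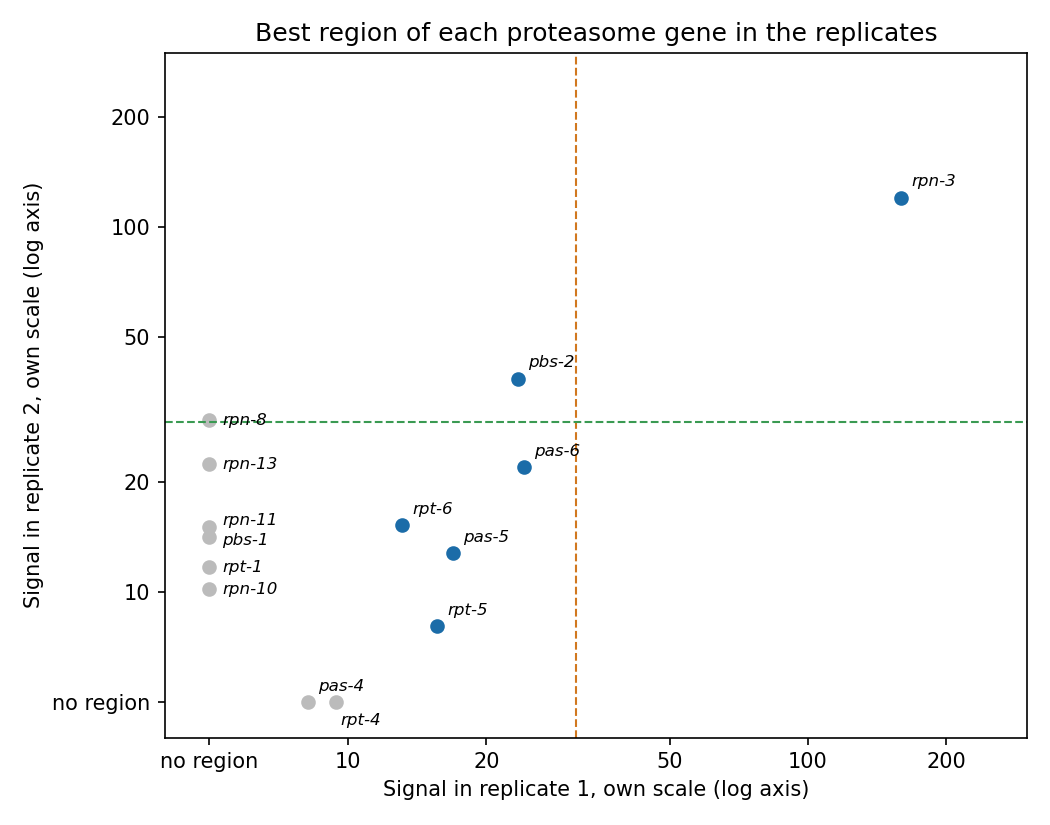
Signal of the best region of each of the 14 proteasome genes with a region in replicate 1 (horizontal, log axis) against replicate 2 (vertical, log axis), each on its own scale, with a gene placed at "no region" where a replicate had none. Dashed lines mark the lowest of the 256 strongest nuclear regions of each replicate (31.3 and 29.2): rpn-3 is beyond both, pbs-2 and rpn-8 are beyond that of replicate 2 only, and 6 genes have blue points because both replicates had a region.

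In the lists of candidate regions, the share of proteasome genes was lower than that of all genes in 2 lists and higher in 1, within the counting error of 32 genes. A pooled candidate lay in the window of 6 of 32 (18.8%, 7.21–36.4), against 32.1% of all genes. A candidate of replicate 1 lay in that of 8 (25%, 11.5–43.4), against 34.2%, and one of replicate 2 in that of 12 (37.5%, 21.1–56.3), against 34.3%. Both replicates had one at 6 (18.8%), against 23.2%, and all 3 lists at 5 (15.6%), against 21.0%. Any of the 3 lists had one at 14 (43.8%, 26.4–62.3), against 46.4%. The share of all genes was inside the members' interval for each of these counts that has one given. Among the 256 strongest nuclear regions of each replicate, replicate 1 gave 1 member, rpn-3 (3.12%, against 0.891% of genes), and replicate 2 gave 3, rpn-3, pbs-2 and rpn-8 (9.38%, 1.98–25, against 0.926%). Among these counts of members, the last is the one whose interval lay above the share of all genes. It was not particular to the members, since the 43 other pathway genes described below gave an interval above that share too. All 3 regions of the members were shared with a divergent neighbour, and the share for other such regions is not given here.

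**Figure D3:**
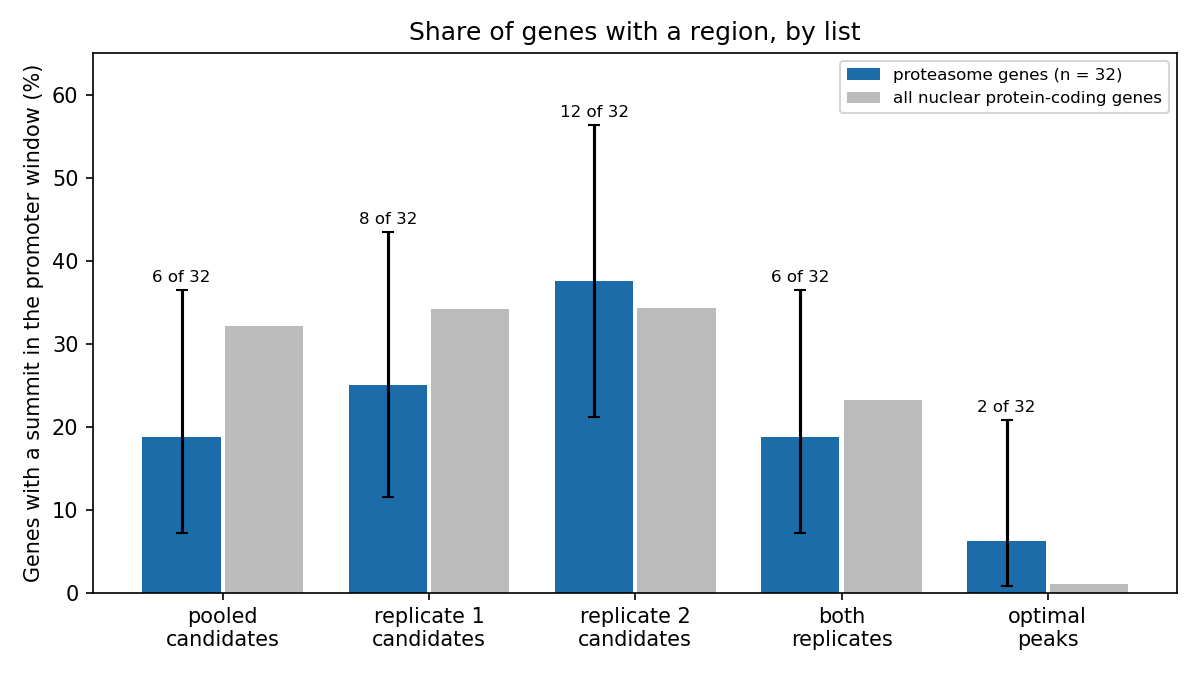
Percent of the 32 proteasome genes (blue, with exact 95% Clopper-Pearson intervals and counts) and of all 19973 nuclear protein-coding genes (grey) with a summit in the promoter window, by list (vertical axis from 0). The blue bars run from 18.8% to 37.5% in the candidate lists and are at 6.25% in the optimal list, and each interval holds the grey value.

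The best pooled signals of the 6 members with a pooled candidate ranged from 18.9 to 279, with a median of 39.0, against a median of 21.6 over the 6412 genes with one. In replicate 1 the median was 16.3 over 8 members, against 13 over 6823 genes. In replicate 2 it was 15.2 over 12 members, against 11.7 over 6844 genes. These medians describe the genes that had a region and leave out the others.

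By part of the complex, regions were spread, and no part had one at all of its genes. Of the 7 alpha subunit genes, 3 had a region in any candidate list (pas-4, pas-5 and pas-6), and of the 7 beta subunit genes 2 did (pbs-1 and pbs-2). Of the 10 genes of the base, with the ubiquitin receptors rpn-10 and rpn-13 counted there, 6 did. Of the 8 lid genes, 3 did (rpn-3, rpn-8 and rpn-11). The share of all genes was 46.4%, and counts this small on either side of it show no difference between the parts. The proteolytic core had 1 optimal peak and the lid had 1, while the alpha ring and the base had none, against 0.981% of all genes.

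The other 18 genes had no region in the window in any of the lists. They were pas-1, pas-2, pas-3 and pas-7 of the alpha ring, and pbs-3, pbs-4, pbs-5, pbs-6 and pbs-7 of the beta ring. In the 19S particle they were the ATPase genes rpt-2 and rpt-3, the base scaffold genes rpn-1 and rpn-2, and the lid genes rpn-5, rpn-6.1, rpn-7, rpn-9 and rpn-12. Their nearest pooled summit was 2042 bp (rpn-7) to 56783 bp (rpn-9) from the transcript start, with a median of 12230 bp. Over all 32 members the median was 9566 bp in the pooled list, against 2248 bp for all genes. It was shorter in the single replicates, 5368 bp against 1636 bp in replicate 1 and 3980 bp against 1600 bp in replicate 2. The nearest optimal peak of the 18 genes was 36319 bp (pbs-5) to 446714 bp (pas-7) away. Over all 32 members the median distance to an optimal peak was 93622 bp, against 166595 bp for all genes. In that list the members thus lay closer than all genes, unlike in the candidate lists. Regions below the floor of the lists cannot be seen, so these genes are without a listed region in the window rather than shown to be unbound. The median gap from these 18 genes to the upstream gene was 326 bp, so most of their windows reach into a neighbour. At pbs-3, pas-1 and pbs-5, for example, a gene on the same strand ended 22 bp, 106 bp and 110 bp upstream.

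**Figure D4:**
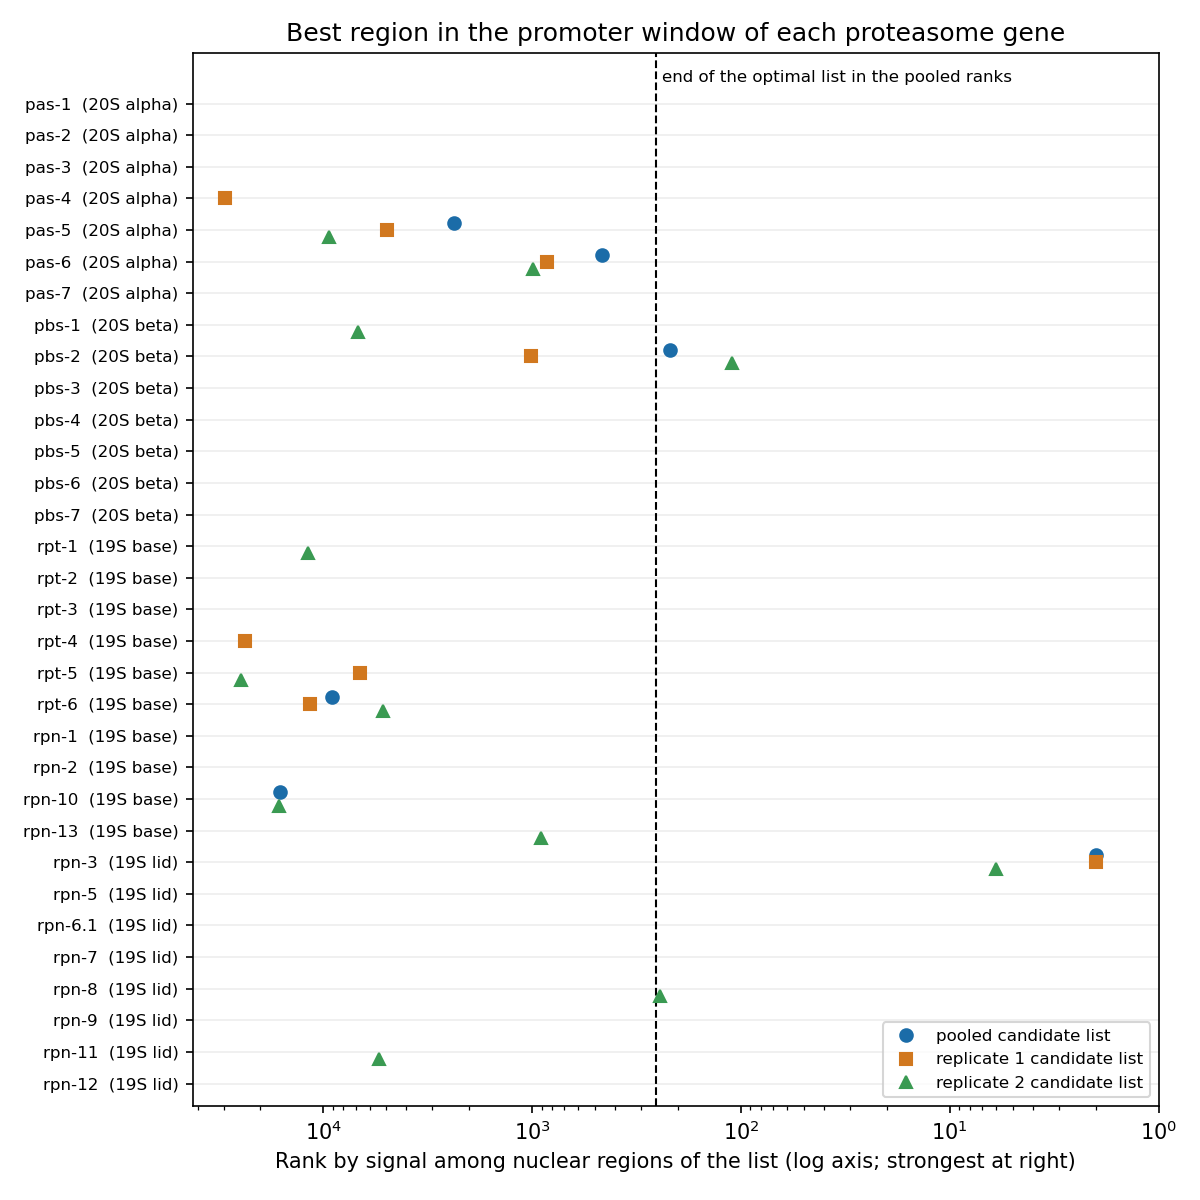
Rank by signal of the best region in the promoter window of each of the 32 proteasome genes (rows, by part of the complex) among the nuclear regions of the pooled list (circles), replicate 1 (squares) and replicate 2 (triangles), on a log axis with the strongest at the right. The dashed line is rank 256, where the optimal list ends in the pooled ranks: rpn-3 stands apart at ranks 2 to 6, and 18 rows are empty.

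The proteasome genes shared features of position that the choice of members had not used. Of the 32, 23 had a divergent upstream neighbour (71.9%), against 45.4% of all genes, and the median gap to the upstream gene was 449 bp, against 1156 bp. This was so with and without a region: 9 of the 14 with a region (64.3%) and 14 of the 18 without one (77.8%) had a divergent neighbour. Over all genes, an optimal peak was in the window of 1.55% of those with a divergent neighbour and of 0.505% of those with one on the same strand. A summit between divergent genes can count for both. Both proteasome genes with an optimal peak, rpn-3 and pbs-2, are of the divergent kind. Of the 8 pooled regions of members, 6 were shared with a neighbour, and at pas-5 and rpn-10 they were not. The share for the regions of other genes is not given here, so this is not a trait of the members. No member is on the X chromosome, which holds 13.7% of all genes. On chromosome I, which holds 14.4% of all genes, there are 10 of the 32.

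The distance between the replicates' nearest summits varied by gene. It was 4 bp at pas-5, 15 bp at rpn-3, 25 bp and 33 bp at the regions of pas-6, 38 bp at rpt-5 and 67 bp at pbs-2. At rpt-6 the replicate 2 summits were 165 bp and 405 bp from the replicate 1 summit. Over all candidate lists, members' summits ran from 998 bp upstream (rpt-6) to 14 bp downstream (rpn-11) of the start.

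In the whole promoter windows, taken at the most upstream start of each gene, the EOR-1 word was present in 2 of 32 proteasome genes, pas-5 and rpn-9 (6.25%), against 8.02% of all genes. GAGAG was in 29 (90.6%, against 80.2%) and GAANNTTC in 24 (75.0%, against 57.2%). The 3-unit element was in 7 (21.9%), against 7.68%. These were pas-1, pas-5, pbs-4, pbs-5, rpn-1, rpn-2 and rpn-3, of which 2 had a region in any list, pas-5 and rpn-3. The 3-unit word was chosen after the rpn-3 sequence had been read, so its match at rpn-3 was fixed in advance. The median G+C content of the windows was 36.3% for the members and 35.0% for all genes. Divergent neighbours share part of such a window, as hsp-110 does with rpn-3, and no test was made.

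Other genes of the ubiquitin and proteasome pathway, a list of 43 that holds enzymes, shuttle factors, regulators, the rpn-6.1 paralogue rpn-6.2 and the small lid subunit gene dss-1, were counted in the same way. Of them 2 had an optimal peak (4.65%, 0.568–15.8), against 0.981% of all genes, and 17 had a pooled candidate (39.5%, 25–55.6), against 32.1%. Both shares of all genes lie inside these intervals. At dss-1 the pooled signal was 20.2, at rank 13689, with 8.55 in replicate 1 and 10.6 in replicate 2. At cdc-48.1, which encodes the p97 ATPase that extracts ubiquitylated proteins for the proteasome, the pooled signal was 83.3, at rank 72, and the summit was 180 bp upstream. Replicate 2 had 33.5 there, at rank 164, and replicate 1 had no candidate in the window. At ubql-1, which encodes a ubiquilin that carries ubiquitylated proteins to the proteasome, the pooled signal was 56.4, at rank 203, with 20.6 in replicate 1 and 36.9 in replicate 2. That summit was 819 bp upstream of ubql-1 and 356 bp upstream of pdi-3. The region at aip-1, named after its value was seen, had 52.5, at rank 258, just outside the optimal list. Its signal was 35.9 in replicate 1 and 22.8 in replicate 2. The pooled summit lay 51 bp downstream of the aip-1 start and 332 bp upstream of the ddx-17 start. At skn-1 the pooled signal was 29.7, with 14.3 and 19 in replicates 1 and 2.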

How the data were processed

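Chromatin from whole L3 larvae of strain OP81 was immunoprecipitated and sequenced in 2 biological replicates of 1 group, with library fragments of 150 to 350 bp, per the labels. Per the README files deposited with the samples, regions were called against a control, once per replicate and once on both together, and the irreproducible discovery rate was then used to derive the optimal list. Neither aligner, peak caller nor thresholds are given in the sources used here. The deposited lists hold a signal value of unstated scale and the −log10 of a q value. Lists in ce11 were used, and lists in ce10 were not used here, since no coordinates were converted. Read depth is unknown.

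Genes and transcript starts were from Ensembl release 115 (WBcel235), and sequence was from RefSeq. Summits were assigned to windows of 1000 bp upstream to 200 bp downstream, and ranks were computed by signal among nuclear regions. The members and lists were chosen with earlier results of these data known, so counts are set beside all genes without a test. All members are accounted for: those with an optimal peak, a region among the 256 strongest of a replicate, or a pooled signal above the lowest optimal one have full values, and the others have fewer. Shares have exact Clopper-Pearson 95% intervals, and a count of 0 allows up to 3 counts of the total. Window assignment was tested on simulated data. Alternatives were other windows, starts, overlap and closest-gene rules, stricter lists and each replicate left out. Tools were pandas 2.3.3, numpy 2.4.6 and SciPy 1.17.1 under Python 3.11.15, with matplotlib 3.10.9 for figures.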

Additional observations from a re-analysis of the deposited data

How the results depend on the processing

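The number of proteasome genes with an optimal peak was 2 under other window sizes, with the most upstream start and under any overlap. The share of all genes was 0.766% to 1.30% under these rules. Taking as many pooled regions of highest signal gave the same 256 peaks, so that alternative could not change the number. The number was 1, rpn-3, with the closest gene only and also when optimal peaks at or below the median signal were left out. The shares of all genes were then 0.696% and 0.511%. No optimal list exists for a single replicate, so the 256 strongest nuclear regions of each replicate were used in its place. With these the number was 1 to 3: replicate 1 alone gave rpn-3, and replicate 2 alone gave rpn-3, pbs-2 and rpn-8. The shares of all genes were 0.891% and 0.926%. The number with a pooled candidate was 5 to 7 under the other rules, while the share of all genes ran from 19.8% to 41.2%. In the list of a single replicate, 8 to 12 members had a candidate, against 34.2% and 34.3% of all genes. The number with a candidate in both replicates was 4 to 8, while the share of all genes ran from 12.5% to 34.5%. The median best signal was 15.2 to 16.3 in the lists of single replicates, which have their own scales. Within 100 bp of the summit, GAGAG was at 1 of 8 pooled summits and the 3-unit element at 2 of 8, with pas-5 added in both. Of 31 alternatives, 23 left the value within 1.5 times the reported one, and these include the alternative that used the same peaks. No paired analysis was possible because there was 1 group.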
